A study of Homo sapiens with 6 samples.

Results

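The genes described here are 10 that serve the methionine cycle and the synthesis of polyamines: MAT2A, MAT2B, AHCY, MTR, MTAP, ODC1, AMD1, SRM, SMS and AZIN1. They were chosen by symbol, and each symbol matched 1 Ensembl ID among the 62703 IDs of the deposited expression table. Of the 10 genes, 9 had 3 or more libraries at an FPKM of 1 or above and so entered the test (FPKM is the number of fragments normalised for gene length and sequencing depth). MTAP was listed at 0 in every library and was not tested.

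Poly(A)-enriched RNA was sequenced from MNNG/HOS Cl #5, a single human osteosarcoma line labelled wild type. Cells grown for 7 days inside a demineralised bone matrix, called 3D here (3 libraries), were compared with cells grown flat for the same time, called 2D (3 libraries). Both groups received high-glucose DMEM with 4 mM glutamine and 10% foetal bovine serum, and no drug treatment is named for either. The series title names drug resistance within the scaffold and glutamine metabolism. Nothing in the labels says that the 3 libraries of a group came from separate cultures, so the p-values measure the spread between these libraries, which may be technical. The series holds this line alone.

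S-adenosylmethionine, SAM, is the methyl donor of the cell and is made from methionine. After a methyl group is given away, the remainder is broken down to homocysteine, which is methylated back to methionine with folate and vitamin B12, and that closes the methionine cycle. SAM also feeds polyamine synthesis: once decarboxylated it donates aminopropyl groups, first to putrescine, which ODC1 makes from ornithine, and then to spermidine, giving spermine. Each transfer leaves methylthioadenosine, which MTAP returns towards methionine. Polyamines are small cations that bind RNA and DNA, and their synthesis is known to rise with cell growth.

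MAT2A mRNA is known to be controlled through hairpins in its 3′ untranslated region, which are bound by METTL16, an RNA methyltransferase that responds to SAM. The loop of each hairpin carries the methylated base within TACAGAGAA or TACAGAAAA, written here as DNA. A search of the mRNA strand of transcript MAT2A-201 (GENCODE 29, GRCh38, plus strand of chromosome 2) found 6 such sites, all after the stop codon, and they are shown because MAT2A rose about 3-fold (values below) and METTL16 itself was measured. Capitals mark the motif, the coordinates are those of the motif, and 10 bases stand on either side.
MAT2A site 1, chr2:85543812-85543820: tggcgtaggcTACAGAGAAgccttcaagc
MAT2A site 2, chr2:85544599-85544607: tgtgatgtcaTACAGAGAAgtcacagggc
MAT2A site 3, chr2:85544784-85544792: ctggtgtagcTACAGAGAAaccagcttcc
MAT2A site 4, chr2:85544899-85544907: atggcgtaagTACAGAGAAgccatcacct
MAT2A site 5, chr2:85545014-85545022: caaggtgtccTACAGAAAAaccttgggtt
MAT2A site 6, chr2:85545122-85545130: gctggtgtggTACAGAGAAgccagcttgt
The first site begins 40 bases after the stop codon and the last 1350 bases after it. Site 5 carries the TACAGAAAA form and the other sites carry TACAGAGAA. Over the longest protein-coding transcript of each of 19684 genes, 7.70% held at least 1 site and 0.0102% held 6 or more. None of the other 9 genes held a site in the transcript searched. A match describes the letters and was not tested for binding.

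The 250 bases before the annotated start were searched in RefSeq promoter entries (GRCh38.p14) for 9 of the 10 genes, which had 16 starts in all. AZIN1 was not among the entries matched. Both strands were searched for the exact letters CACGTG (the E-box, its own reverse complement), TATAAA (a form of the TATA box) and GGGCGG (the GC box). Other spellings of these elements were not searched. SRM and MAT2A are shown, since both transcripts were about 3-fold more abundant in 3D (values below) and their promoters hold different elements. Capitals mark TATAAA in MAT2A and CACGTG in SRM.
MAT2A promoter, chr2:85538918-85539167, plus strand: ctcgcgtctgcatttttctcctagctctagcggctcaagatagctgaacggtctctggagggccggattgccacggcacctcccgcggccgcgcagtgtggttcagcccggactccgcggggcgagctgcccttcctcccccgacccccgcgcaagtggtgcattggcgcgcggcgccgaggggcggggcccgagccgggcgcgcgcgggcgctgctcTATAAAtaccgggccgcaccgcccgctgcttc
SRM promoter, chr1:11060019-11060268, minus strand: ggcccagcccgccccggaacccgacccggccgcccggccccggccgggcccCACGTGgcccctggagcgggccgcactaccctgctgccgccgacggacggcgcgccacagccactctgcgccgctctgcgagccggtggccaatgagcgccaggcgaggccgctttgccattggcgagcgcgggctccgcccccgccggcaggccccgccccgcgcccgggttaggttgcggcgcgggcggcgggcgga
TATAAA begins 32 bases before the MAT2A start. MTAP was the other gene of the 9 with these letters, but 215 bases before its start. The E-box begins 199 bases before the SRM start, and 1 of the ODC1 windows also held one. Over all 35116 promoter entries, 6.34% held CACGTG, 10.7% TATAAA and 42.6% GGGCGG. The GC box was found in 14 of the 16 windows of these genes, SRM and MAT2A among them. These are matches of letters, and binding was not measured.

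Whole reads could be worked out from the FPKM values. The 3D libraries held 13332803 to 16361569 reads and the 2D libraries 13652114 to 14240217. The gene lengths behind the FPKM were longer than the exon lengths of GENCODE 29 for many genes (39124 against 5153 bases for MAT2B, 2625 against 2160 for SMS). The ratio of a gene's FPKM between groups does not depend on that length, but the order of levels between genes does. The filter at 1 FPKM depends on it too, as do the log2 changes, which are taken after 1 is added to the FPKM. The line's mesenchymal origin was checked by its markers. The 9 mesenchymal and osteoblast markers summed to 386.0 to 409.0 FPKM in 3D and 585.4 to 803.3 in 2D. Most of that sum was VIM, and the markers did not all move the same way. Their part in the results was not tested. VIM, an intermediate filament gene, was lower in 3D (294 ± 2.87 against 598 ± 127 FPKM, SD, n = 3, limma log2 change -0.999, adjusted p = 0.00191). COL1A1, a collagen chain, was higher (43.7 ± 6.75 against 8.28 ± 1.61, log2 change 2.27, adjusted p = 0.000267), and SPARC, a matrix protein gene, did not pass (51.7 ± 4.19 against 56.1 ± 5.60). The other 6 did not reach 1 FPKM in 3 libraries and were not tested. RUNX2, SPP1 and COL1A2 averaged 2.19, 1.40 and 1.24 FPKM in 3D and 0.648, 0.302 and 0.217 in 2D, BGLAP 0.200 and 0.563, and SP7 and ALPL were near 0. RUNX2 held 141 to 1098 reads a library and SPP1 60 to 726. Their FPKM rested on long lengths, 21582 bases against 8192 in GENCODE 29 for RUNX2 and 21338 against 2321 for SPP1. Of the 4 epithelial markers, EPCAM was at 1.31 to 1.67 FPKM over the 6 libraries and did not pass, CDH1 was near 0, and KRT5 and KRT20 were listed at 0. The 3 endothelial markers summed to 0.293 FPKM at most, with CDH5 at 0, and the 6 haematopoietic markers summed to 3.01 to 7.60 FPKM in 3D and 2.12 to 23.3 in 2D, with none past the test. Most of the haematopoietic sum was HBB and HBA1, which differed widely among the 2D libraries. HBB was at 7.60, 5.72 and 0.905 FPKM in 2D and 0.779 to 2.43 in 3D. HBA1 was at 10.6, 16.6 and 1.02 in 2D and 1.26 to 4.07 in 3D. The proliferation marker MKI67 averaged 40.7 ± 6.43 FPKM in 3D and 33.6 ± 5.47 in 2D (SD, n = 3), and the difference did not pass (limma, adjusted p = 0.198).

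Of the 9 tested genes, 5 rose in 3D (MAT2A, MTR, ODC1, AMD1 and SRM) and 0 fell, while MAT2B, AHCY, SMS and AZIN1 did not pass. The test was limma on log2(FPKM + 1), with Benjamini-Hochberg adjusted p under 0.05 over all 12843 tested genes. By that test 33.3% of all genes rose and 18.1% fell, 51.4% in either direction, so a rise by itself was common. A rise of at least 1 on the log2 scale was less common, at 5.52% of all tested genes, and 4 of the 9 genes (MAT2A, ODC1, AMD1 and SRM) had one. A fall of that size was found in 4.14% of all tested genes and in 0 of the 9. These shares cover genes of every level, and adding 1 to the FPKM shrinks the change of low genes. By mean 3D level, MAT2A, ODC1, AMD1 and SRM stood at percentiles 96.7, 53.1, 82.7 and 87.4 of the tested genes. At an unadjusted p under 0.05, 6 of the 9 were higher and 0 lower, against 37.4% and 20.7% of all tested genes, and voom on the worked-out reads also called 0 lower. The median log2 change of the 9 genes was 0.37, against 0.14 for all tested genes. With libraries scaled by the median ratio instead, the median of all genes moved to 0.01, the calls split into 3148 higher and 3148 lower, and 4 of the 9 genes rose and 1, SMS, fell. In bulk RNA a change in RNA per cell cannot be told apart from a change in the share of cells that make it.

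**Figure D1:**
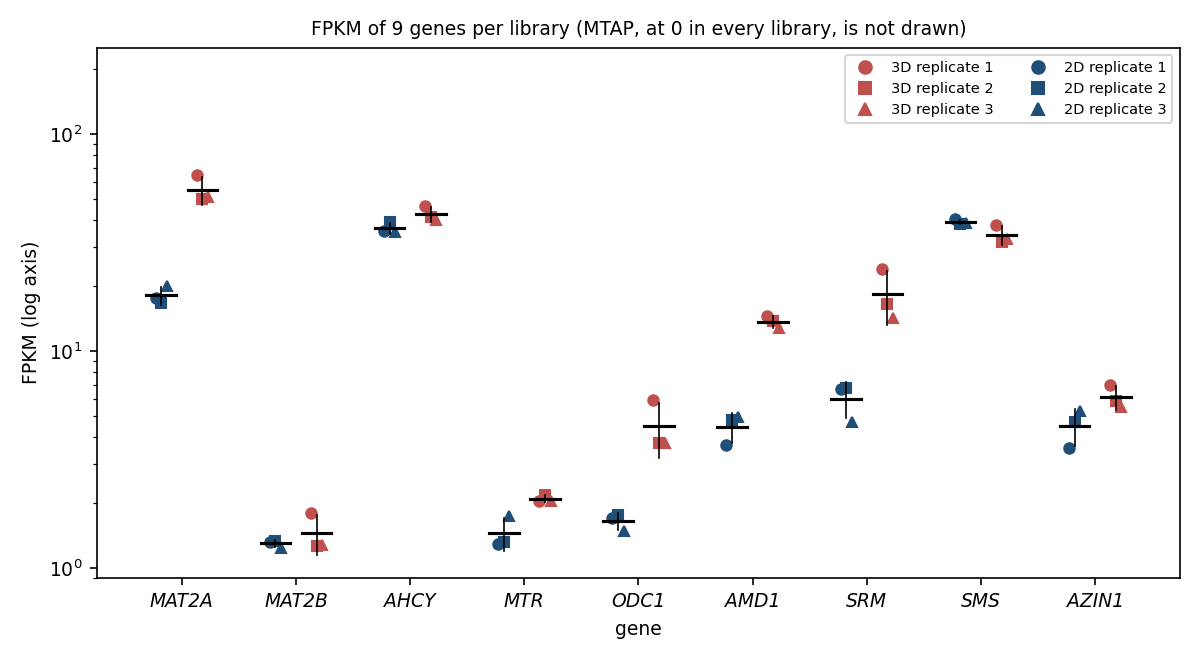
FPKM on a log axis for 9 of the 10 genes in each of the 3 libraries of 2D (blue) and 3D (red), with the group mean as a horizontal line and the SD as a vertical line. For MAT2A, ODC1, AMD1 and SRM every 3D point lies above every 2D point, while MAT2B overlaps and SMS lies lower in 3D.

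MAT2A (chr2:85539165-85545280, plus strand) encodes the catalytic subunit of the SAM synthetase found in most tissues outside the liver. Its FPKM was 64.4, 50.2 and 51.0 in the 3D libraries, in the order of their replicate numbers here and for every gene, and 17.6, 16.6 and 19.995 in the 2D libraries. The lowest 3D library stood well above the highest 2D library, and the groups did not overlap. The mean was 55.2 ± 7.97 in 3D and 18.1 ± 1.73 in 2D (SD, n = 3), a 3.05-fold difference. The log2 change was 1.55 with a standard error of 0.13 (limma, adjusted p = 0.000327). These levels rest on 4298 to 5348 reads in each 3D library and 1413 to 1772 in each 2D library. GGCX lies across part of the gene on the other strand and had a mean of 2.30 FPKM over the 6 libraries, and whether the authors' counting used strand is not known.

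MAT2B (chr5:163503114-163519336, plus strand) encodes the regulatory subunit that binds the MAT2A enzyme. Its FPKM was 1.79, 1.27 and 1.28 in 3D and 1.32, 1.33 and 1.24 in 2D. Replicate 1 of 3D was the highest library, and the other 3D libraries lay among those of 2D. The means were 1.45 ± 0.299 and 1.30 ± 0.0504, and the log2 change of 0.08 had a 95% interval of -0.17 to 0.34 (limma, adjusted p = 0.548). Its sign turned to -0.01 without 3D replicate 1 and to -0.02 with median-ratio scaling.

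AHCY (chr20:34280268-34311802, minus strand) encodes the hydrolase that splits S-adenosylhomocysteine, the product of every SAM-dependent methylation. Its FPKM was 46.4, 41.4 and 40.2 in 3D and 35.8, 39.3 and 35.5 in 2D. Each 3D library stood above each 2D library, but by little. The means were 42.7 ± 3.29 and 36.9 ± 2.13, a log2 change of 0.21 with a 95% interval of -0.02 to 0.43 that did not pass (limma, adjusted p = 0.116). The interval covers changes up to a rise of 0.43 and does not reach the size of the MAT2A change.

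MTR (chr1:236795281-236903981, plus strand) encodes methionine synthase, the vitamin B12 enzyme that remethylates homocysteine. Its FPKM was 2.04, 2.17 and 2.03 in 3D and 1.29, 1.31 and 1.73 in 2D. The 3D libraries were close to each other and all above 2D, where replicate 3 was the highest. The means were 2.08 ± 0.0776 and 1.45 ± 0.249, and the log2 change was 0.34 with a standard error of 0.10 (limma, adjusted p = 0.0270). The call was lost in 7 of the 11 alternatives, among them median-ratio scaling (0.22, adjusted p = 0.0898) and the removal of any 3D library. The log2 change was 0.54 (adjusted p = 0.0113) with voom on the worked-out reads and 0.51 with a pseudocount of 0.1 FPKM.

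MTAP (chr9:21802543-21937651) encodes the phosphorylase that cleaves methylthioadenosine, the by-product of polyamine synthesis. It was listed at 0 FPKM in each of the 3 libraries of 3D and the 3 of 2D. A count of 0 allows up to 3 reads in a library. GENCODE 29 places 5 other genes across its span, and the highest mean of any of them was 0.00729 FPKM. MTAP and its neighbour CDKN2A are known to be lost together in many cancers. From the MTAP start to the last gene before DMRTA1, a stretch of 412.1 kb with 15 annotated genes, 12 genes had 0 reads in all 6 libraries and the whole stretch held 4 reads, of which CDKN2B had 2 and CDKN2A had 1. On the side of CDKN2A, DMRTA1 starts 644.3 kb from MTAP and had 828 reads over the 6 libraries. On the other side, the pseudogene KHSRPP1, whose nearer edge lies 105.6 kb from MTAP, had 23 reads spread over all 6 libraries. Measured the same way, IFNE at 320.2 kb had 147 reads and KLHL9 at 467.2 kb had 4667. Silent genes were common outside the stretch too: the interferon alpha genes between KLHL9 and IFNE were at or near 0, and HACD4 had 3 reads. DNA copy number was not measured, so an absent gene and a silent gene cannot be told apart.

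**Figure D2:**
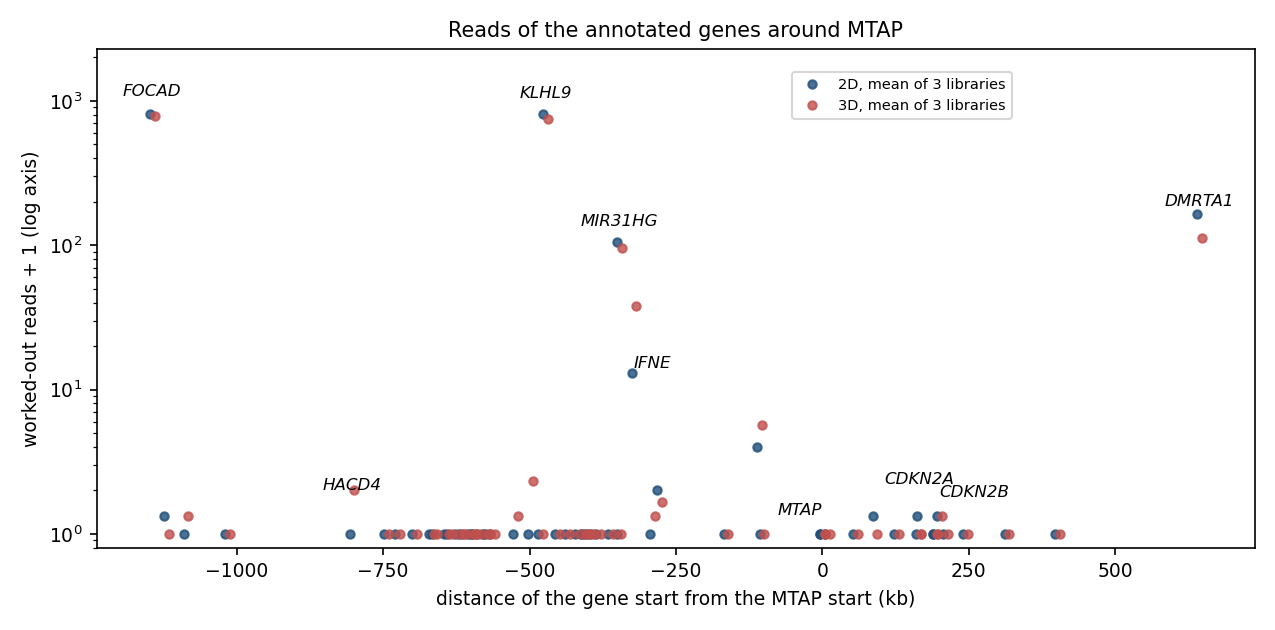
Worked-out reads plus 1 (log axis, mean of 3 libraries per group, 2D in blue and 3D in red) of each annotated gene against the distance of its start from the MTAP start in kb. MTAP, at 0 reads, and the genes to its right up to DMRTA1 lie at or near the bottom in both groups, while FOCAD, KLHL9, MIR31HG, IFNE and DMRTA1 hold reads.

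The polyamine arm opens with 2 decarboxylases. ODC1 (chr2:10439968-10448504, minus strand) encodes ornithine decarboxylase, which makes putrescine. Its FPKM was 5.97, 3.77 and 3.76 in 3D and 1.71, 1.75 and 1.48 in 2D. The groups did not overlap, and 3D replicate 1 stood apart from the other 3D libraries. The means were 4.50 ± 1.28 and 1.64 ± 0.145, a 2.74-fold difference. The log2 change was 1.03 with a standard error of 0.16 (limma, adjusted p = 0.00213). It was 0.85 without 3D replicate 1 and 1.41 with voom on the reads, and it passed in both. Its reads were few, 295 to 454 in each 3D library and 120 to 137 in each 2D library.

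AMD1 (chr6:110874770-110895713, plus strand) encodes the decarboxylase that turns SAM into the aminopropyl donor. Its FPKM was 14.4, 13.7 and 12.7 in 3D and 3.68, 4.79 and 4.99 in 2D. All 3D libraries were far above all 2D libraries, with a narrow spread in 3D. The means were 13.6 ± 0.857 and 4.49 ± 0.703, a 3.04-fold difference. The log2 change was 1.42 with a standard error of 0.12 (limma, adjusted p = 0.000336), on 4114 to 4547 reads per 3D library. GENCODE 29 places no other gene across AMD1. The length behind its FPKM, 21756 bases, was longer than the whole span given above, so overlaps in the authors' annotation are not known.

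The aminopropyl groups are added by 2 synthases. SRM (chr1:11054584-11060024, minus strand) encodes spermidine synthase, whose promoter with CACGTG is shown above. Its FPKM was 24.0, 16.5 and 14.2 in 3D and 6.65, 6.72 and 4.72 in 2D. The groups did not overlap, and replicate 3 was the lowest library of each. The means were 18.2 ± 5.11 and 6.03 ± 1.13, a 3.02-fold difference with a log2 change of 1.43 and a standard error of 0.21 (limma, adjusted p = 0.00159). Without 3D replicate 1 the log2 change was 1.23.

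SMS (chrX:21940573-21994835, plus strand) encodes spermine synthase, the next step. Its FPKM was 38.0, 31.9 and 32.8 in 3D and 40.4, 38.6 and 39.1 in 2D. Each 3D library was below each 2D library, the only one of the 9 genes with that order. The means were 34.2 ± 3.29 and 39.3 ± 0.957, and the log2 change of -0.20 had a 95% interval of -0.43 to 0.03 (limma, adjusted p = 0.128). It passed as lower with median-ratio scaling (-0.38, adjusted p = 0.0159) and without 3D replicate 1 (-0.27, adjusted p = 0.0369).

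AZIN1 (chr8:102826357-102893864, minus strand) encodes antizyme inhibitor 1, a relative of ODC1 without enzyme activity that binds antizyme and so spares ODC1 from degradation. Its FPKM was 6.96, 5.87 and 5.50 in 3D and 3.56, 4.73 and 5.30 in 2D. The 3D libraries were all above the 2D libraries, but the lowest of 3D and the highest of 2D almost met. The means were 6.11 ± 0.759 and 4.53 ± 0.886, with a log2 change of 0.37 and a 95% interval of 0.03 to 0.71 (limma, adjusted p = 0.0689). It passed without 2D replicate 3 (0.47, adjusted p = 0.0416), was 0.24 without 2D replicate 1 (adjusted p = 0.176) and was 0.22 with median-ratio scaling (adjusted p = 0.241).

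Across the 9 genes, every 3D library was above every 2D library for 7, against 39% of all tested genes, and below for 1, against 21.9%. Replicate 1 of 3D gave the highest 3D value for 8 of the 9 genes, against 42.9% of all tested genes. On the second principal component, which held 10.2% of the variance, that library lay at 20.9 and the other 3D libraries at -5.74 and -16.0. The 2D libraries lay at 9.17, 6.03 and -14.3, in the order of their replicate numbers. The log2 changes of MAT2A and AMD1 without 3D replicate 1 were 1.44 and 1.38.

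**Figure D3:**
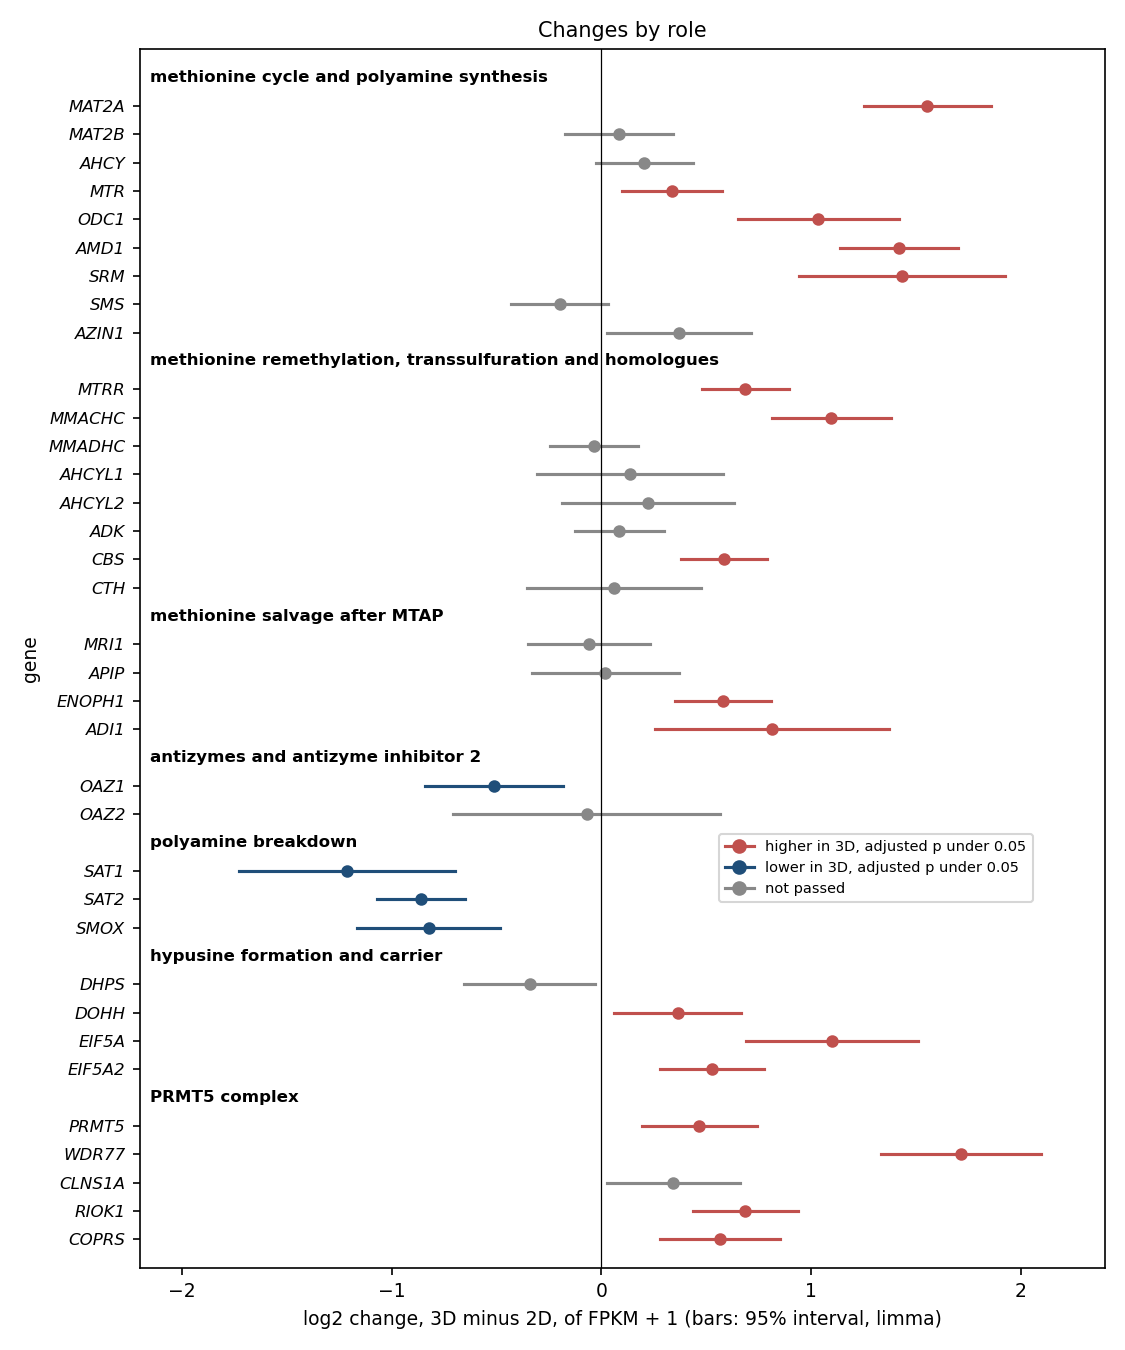
Log2 change of FPKM + 1, 3D minus 2D, with its 95% interval from limma, for the tested genes grouped by role; red passed as higher in 3D, blue as lower, grey did not pass. Among the polyamine genes ODC1, AMD1 and SRM lie near or above 1, and SAT1, SAT2 and SMOX lie below 0.

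Ratios of 2 genes within a library do not depend on how libraries are scaled, so 4 pairs of partners were compared by a two-sided exact permutation test, which cannot go below p = 0.1 with 3 libraries against 3. The log2 ratio of MAT2A, the catalytic subunit, to MAT2B was 5.17, 5.31 and 5.32 in 3D and 3.74, 3.64 and 4.01 in 2D. The 2 groups did not overlap, and the ratio was 2.77-fold higher in 3D (exact p = 0.1, and 0.133 adjusted over 4 ratios). SRM stood below SMS in every library. The log2 ratio of SRM to SMS was -0.66, -0.95 and -1.21 in 3D and -2.60, -2.52 and -3.05 in 2D, which is 3.44-fold higher in 3D (exact p = 0.1, adjusted 0.133). These ratios use the authors' gene lengths, so their level is not a count of molecules per molecule.

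The log2 ratio of AMD1 to ODC1 was 1.27, 1.86 and 1.76 in 3D and 1.11, 1.45 and 1.75 in 2D. The groups overlapped, and the difference of 0.19 did not pass (exact p = 0.5, adjusted 0.5). Both decarboxylases rose, and these libraries do not show which rose more. ODC1 was also set against OAZ1, the antizyme that binds ODC1 and sends it to the proteasome. That log2 ratio was -2.10, -2.48 and -2.38 in 3D and -4.36, -4.25 and -4.21 in 2D. The groups did not overlap, and the ratio was 3.87-fold higher in 3D (exact p = 0.1, adjusted 0.133).

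**Figure D4:**
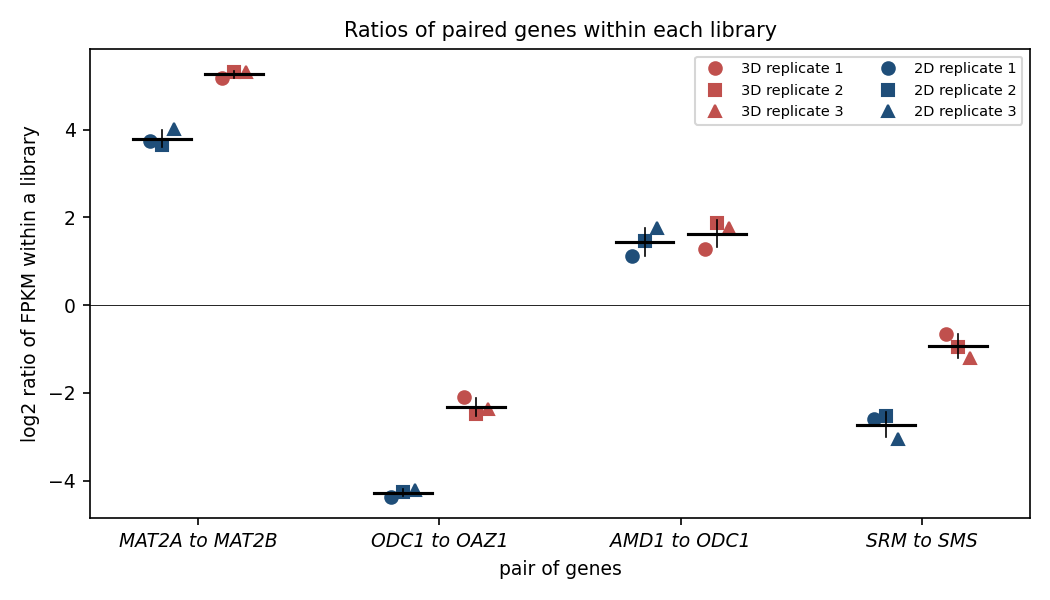
Log2 ratio of the FPKM of 2 genes within each library, for 4 pairs, with 3D in red, 2D in blue, the mean as a horizontal line and the SD as a vertical line. The 3D points lie above the 2D points for MAT2A to MAT2B, ODC1 to OAZ1 and SRM to SMS, and overlap them for AMD1 to ODC1.

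OAZ1 itself was lower in 3D. Its FPKM was 25.6, 21.1 and 19.6 in 3D and 35.1, 33.3 and 27.3 in 2D, without overlap, and its log2 change was -0.51 with a standard error of 0.14 (limma, adjusted p = 0.0190). The call was lost in 5 of the 11 alternatives, with an adjusted p of 0.0631 at most. GENCODE 29 places 2 other genes across OAZ1, 1 of them on the other strand, and the higher mean was 1.03 FPKM. The length behind the OAZ1 FPKM, 9724 bases, was longer than its whole span (chr19:2269509-2273490). Overlaps in the authors' annotation are not known, which also limits the ratio of ODC1 to OAZ1. OAZ2, a second antizyme, averaged 5.20 ± 2.17 in 3D and 5.20 ± 0.48 in 2D and did not pass, and OAZ3 and AZIN2 stayed at or below 0.244 FPKM and were not tested. Antizyme protein depends on a ribosomal frameshift that polyamines promote, which mRNA levels do not measure.

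The genes of polyamine breakdown fell, with 3 of 3 tested lower in 3D against 18.1% of all tested genes. SAT1, the acetyltransferase that marks spermidine and spermine for export or oxidation, had an FPKM of 9.76, 15.3 and 17.9 in 3D and 39.6, 29.9 and 32.0 in 2D. The groups did not overlap, and 3D replicate 1 was the lowest library. The mean was 2.36-fold lower in 3D, with a log2 change of -1.21 (limma, adjusted p = 0.00365), or -0.98 without 3D replicate 1. SMOX, which oxidises spermine back to spermidine, was at 11.9, 11.7 and 9.04 in 3D and 22.9, 17.2 and 19.994 in 2D, 1.84-fold lower in 3D (log2 change -0.82, adjusted p = 0.00329). SAT2, a relative of SAT1, was at 1.02, 1.20 and 1.21 in 3D and 2.94, 3.04 and 2.69 in 2D, 2.53-fold lower in 3D (log2 change -0.86, adjusted p = 0.000555). The length behind its FPKM, 9332 bases, was longer than its whole span in GENCODE 29 (chr17:7626234-7627876). That of SAT1, 4701 bases, was also longer than its span (chrX:23783173-23786226). Overlaps of both in the authors' annotation are therefore not known. PAOX, which oxidises the acetylated polyamines, stayed at or below 0.195 FPKM and was not tested. SAT1, SMOX and SAT2 kept their calls in each of the 11 alternatives.

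Spermidine is also the source of hypusine, a modified lysine that the translation factor EIF5A needs. Of this list, 3 of 4 genes rose, against 33.3% of all tested genes, and 1 of the 3 calls, DOHH, depended on the processing. EIF5A was at 105, 81.1 and 65.1 FPKM in 3D and 39.5, 39.2 and 34.7 in 2D, a log2 change of 1.10 (limma, adjusted p = 0.00216), or 0.93 without 3D replicate 1. Its relative EIF5A2 rose by 0.53 on the log2 scale (adjusted p = 0.00539). DOHH, the hydroxylase that completes hypusine, rose by 0.36 (adjusted p = 0.0480), a call lost in 8 of the 11 alternatives. DHPS, the synthase that uses spermidine, averaged 3.00 FPKM in 3D and 4.04 in 2D and did not pass (log2 change -0.34, adjusted p = 0.0645).

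Of the genes around MTR in remethylation and transsulfuration, 3 of 8 tested rose and 0 fell, with a median log2 change of 0.18. Both are close to the values over all tested genes, 33.3% and 0.14. MTRR, the reductase that reactivates MTR, was at 4.32, 4.25 and 3.92 FPKM in 3D and 2.15, 2.11 and 2.37 in 2D. The groups did not overlap, and the log2 change was 0.69 (limma, adjusted p = 0.000985). MMACHC, which processes vitamin B12 for MTR, averaged 4.48 ± 0.439 in 3D and 1.57 ± 0.321 in 2D, a log2 change of 1.10 (adjusted p = 0.000650). CBS, which draws homocysteine away towards cysteine, averaged 40.4 ± 1.62 and 26.6 ± 1.34, a log2 change of 0.59 (adjusted p = 0.00170). The other 5 tested genes ranged from -0.04 to 0.22 and did not pass. MAT1A, the liver form of the SAM synthetase, was among the 5 genes not tested, none of which exceeded 0.907 FPKM.

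The salvage genes that act after MTAP were present while MTAP was at 0. All 4 were tested, and 2 rose on the log2 scale: ENOPH1, the enolase-phosphatase, by 0.58 (limma, adjusted p = 0.00272) and ADI1, the dioxygenase after it, by 0.81 (adjusted p = 0.0246). The ADI1 call was lost in 6 of the 11 alternatives, and with 33.3% of all tested genes higher, 2 of 4 is no result about the list. The isomerase MRI1 and the dehydratase APIP, which act before them, had log2 changes of -0.06 and 0.02 and did not pass. At the supply end, the methionine and SAM transport list had 1 higher and 1 lower of 4 tested, near the 33.3% and 18.1% of all tested genes. SLC7A5, a plasma membrane importer of large neutral amino acids, averaged 222 ± 2.32 FPKM in 3D and 177 ± 12.3 in 2D (log2 change 0.32, adjusted p = 0.0243), but not under median-ratio scaling, which gave an adjusted p of 0.282. SLC7A8, a related importer, fell by 0.72 (adjusted p = 0.00335).

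The ornithine list also had 1 gene in each direction of 3 tested, a share of higher genes equal to the 33.3% over all genes. SLC25A15, the mitochondrial ornithine carrier, averaged 13.2 ± 1.87 FPKM in 3D and 6.65 ± 0.656 in 2D (log2 change 0.89, limma adjusted p = 0.00140). ARG2, the mitochondrial arginase that makes ornithine, fell by 0.59 (adjusted p = 0.0446), a call lost in 7 of the 11 alternatives, with a log2 change of -0.37 without 3D replicate 1. OAT, which converts ornithine to and from glutamate semialdehyde, had a log2 change of 0.15 and did not pass, and ARG1 was listed at 0. AGMAT missed the filter and was not tested. It averaged 0.759 FPKM in 3D and 0.185 in 2D, on 29 to 37 reads in each 3D library and 5 to 11 in each 2D library. The polyamine transport list had 1 gene higher and 1 lower of 3 tested, against 33.3% and 18.1% of all tested genes. ATP13A3, with a log2 change of 0.07, did not pass. ATP13A2, a lysosomal polyamine exporter, rose by 0.36 (limma, adjusted p = 0.0171) and SLC18B1, a vesicular polyamine transporter, fell by 0.31 (adjusted p = 0.0270). Each of these calls was lost in 4 of the 11 alternatives, and ATP13A2 had an adjusted p of 0.117 under median-ratio scaling.

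SAM is used by methyltransferases, and METTL16 links that use to MAT2A through the sites shown above. METTL16 was at 2.06, 1.71 and 2.78 FPKM in 3D and 0.952, 1.23 and 1.12 in 2D. The groups did not overlap, and the log2 change was 0.59 with a standard error of 0.14 (limma, adjusted p = 0.0104), a call kept in each of the 11 alternatives. Its size was 0.97 with voom on the reads. Whether the METTL16 and MAT2A changes are connected was not tested.

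Of 17 methyltransferases outside the PRMT5 complex, METTL16 included, 7 rose and 0 fell by limma, against 33.3% and 18.1% of all tested genes, and the median log2 change was 0.27. The others that rose were PRMT6 (1.46, adjusted p = 0.000313), which methylates histone H3 arginine, ICMT (1.23, adjusted p = 0.000310), which methylates prenylated proteins, METTL1 (0.86), a tRNA methyltransferase that was under 1 FPKM in every 2D library, PRMT3 (0.80), which acts on a ribosomal protein, TPMT (0.64), which methylates thiopurine drugs, and CARM1 (0.27), a coactivator that methylates histones. CARM1 lost its call in 6 of the 11 alternatives, with an adjusted p of 0.269 at most. METTL1 entered the test only through its 3D libraries, and of the other 16 genes 6 rose. The 10 genes that did not pass ranged from -0.29 to 0.31.

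PRMT5, the arginine methyltransferase that methylthioadenosine inhibits, and its partners formed a list of 5 tested genes, of which 4 rose, against 33.3% of all tested genes. PRMT5 averaged 13.5 ± 1.95 FPKM in 3D and 9.42 ± 0.394 in 2D (log2 change 0.47, limma adjusted p = 0.0136). Under median-ratio scaling its adjusted p was 0.0627. WDR77, its obligate partner, averaged 27.8 ± 6.26 and 7.64 ± 0.570, a log2 change of 1.71 (adjusted p = 0.000408). RIOK1 and COPRS, adaptors that guide the enzyme to substrates, rose by 0.69 and 0.56. CLNS1A, the adaptor for splicing proteins, had a log2 change of 0.34 and did not pass (adjusted p = 0.0671).

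**Figure D5:**
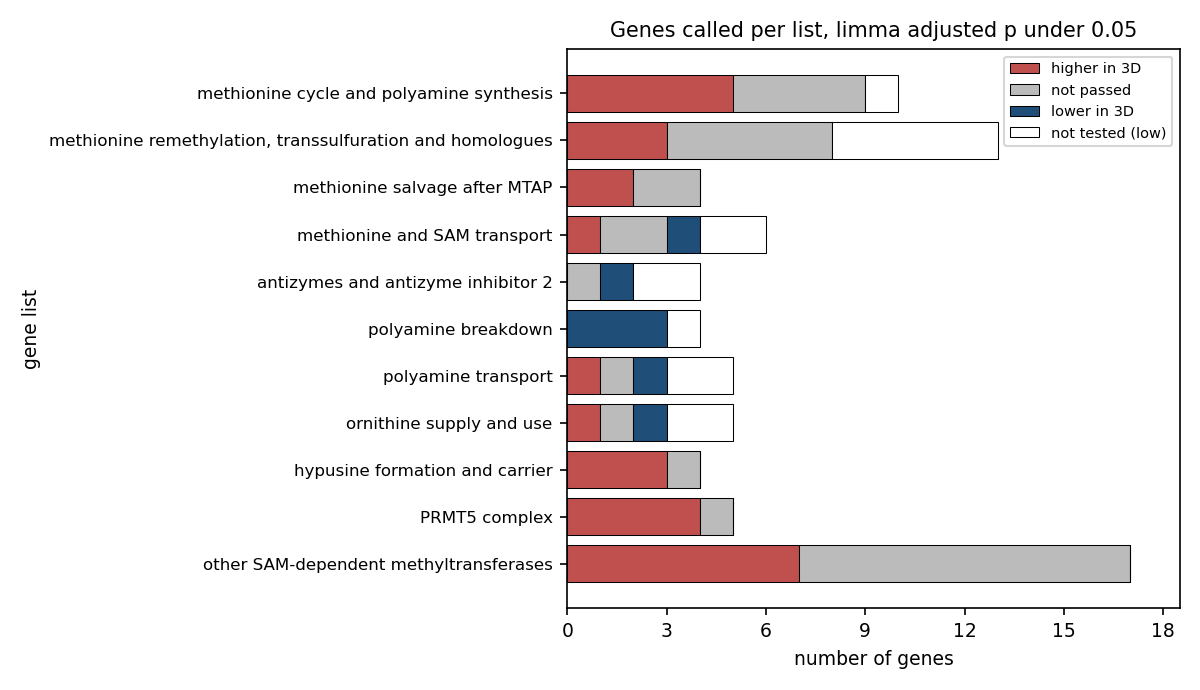
Number of genes in each list that passed as higher in 3D (red) or lower in 3D (blue), did not pass (grey) or were not tested because they missed the FPKM filter (white), by limma with adjusted p under 0.05. Polyamine breakdown has 3 lower genes and no higher one, and methionine cycle and polyamine synthesis has 5 higher genes and no lower one.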

How the data were processed

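The authors deposited 1 table of FPKM values for 6 libraries. FastQC, fastp, HISAT2, StringTie, edgeR and GRCh38 are named in the submitters' processing notes, without roles or versions. Not given in the sources used here are the annotation release, strandedness and the treatment of multi-mapping reads. Overlapping genes may share reads.

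The 12843 genes with 3 or more libraries at 1 FPKM or above were compared on log2(FPKM + 1) with limma 3.58.1 (trend and robust, statmod 1.5.0, R 4.3.3), 2-sided, without covariates. This scale understates the change of low genes. Whole reads were worked out from the FPKM values within 0.01 reads for all but 3 of the 33243 genes above 0, using GENCODE 29 exon lengths for 11450 and a searched length for the rest. A single read in 1 kb was worth 0.0609 to 0.0747 FPKM, and read limits cover counting error only. Replicate pairs had a chi-square of 12.9 to 28.7 for each degree of freedom, beyond sampling noise.

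Data were simulated with the library sizes of this comparison over 12843 genes. Calls were made for 66 of 66 genes set to a 4-fold change, 39 of 67 set to 2-fold and 5 of 67 set to 1.5-fold. Of 12643 genes left as they were, 11 were called. Genes set to change averaged at least 50 reads, and the spread was averaged over genes of similar level. Far fewer genes were changed than the 51.4% called in the real comparison, so these shares need not hold there.

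The 10 genes, the related lists and the tests were chosen with earlier results of these data known. All 10 are named, as are genes of the related lists that passed, OAZ1, OAZ2, AZIN2, SAT1, SMOX, METTL16, PRMT5, MTRR, CDKN2A, CDKN2B and MKI67. Symbols came from a name table, and positions are those of GENCODE 29. Alternatives were another pseudocount, no filter, median-ratio scaling, voom on the reads, a replicate block and leaving out each library, 11 in all.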

Additional observations from a re-analysis of the deposited data

How the results depend on the processing

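Of the 9 tested genes of the pathway, 5 kept direction and side of the threshold in all 11 alternatives (MAT2A, ODC1, AMD1, SRM and AHCY), MTR lost its call in some, SMS and AZIN1 gained one in some, and MAT2B changed sign. The log2 change of MAT2B was -0.022 with median-ratio scaling and ran from -0.015 to 0.14 with a library left out, and that of OAZ2 ran from -0.27 to 0.26. The number of these genes that rose ran from 4 to 6 with a library left out, and the number that fell from 0 to 1; it was 1 with median-ratio scaling. Over all genes, leaving out a library gave 3475 to 4065 higher and 1947 to 2182 lower, no filter gave 4458 and 2274 of 33243 tested, a pseudocount of 0.1 gave 4232 and 2301, and voom gave 4317 and 2366. Of 31 other named genes with a call, 21 kept it in all 11 alternatives. Voom gave larger log2 changes for some low genes: -1.33 for SAT2, 0.87 for EIF5A2, -1.16 for SLC7A8 and 1.51 for METTL1. Genes that did not pass were not followed across the alternatives, apart from OAZ2, MKI67 and those of the pathway. The difference in log2 ratio without a library ran from 1.39 to 1.57 for MAT2A to MAT2B, 1.84 to 2.03 for ODC1 to OAZ1, 0.03 to 0.37 for AMD1 to ODC1 and 1.62 to 1.92 for SRM to SMS. With the replicate number as a block, 5 of the genes rose and 0 fell, 4291 of all genes rose and 2382 fell, and the 4 ratio differences had an exact p of 0.25, the smallest that 3 pairs can give. For libraries of the same number, deviations from the group mean correlated at 0.0837, -0.0172 and 0.184. The 0.184, of replicate 3, was the largest of any 3D and 2D pair, and pairs of different numbers reached 0.104. Not every library correlated best with its own number. The second principal component ordered both groups by replicate number. Whether libraries of the same number shared a batch was not tested. The cause of the changes between 3D and 2D was not tested. Depth limits MTAP to an upper bound, and ODC1 rests on 120 to 454 reads a library.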
